A study of Mus musculus with 8 samples.

Results

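Hepatocytes around the central vein of the liver lobule live under a Wnt signal, and 10 genes of that signal were described here: Lgr5, Axin2, Lect2, Tbx3, Rnf43, Znrf3 and Tcf7, which respond to or act in it within cells, and Rspo3, Wnt2 and Wnt9b, which encode its secreted ligands. They were named as a set by symbol with earlier results of these data known. Shares over all genes are therefore given as background and do not test the set. Each gene was taken from every probe set annotated with its symbol alone, giving 100 of the 206316 probe sets with 1 symbol and 10 of the 19560 genes measured. Total RNA of liver was hybridised to Affymetrix mouse gene arrays, 1 array for each of 8 male mice aged 6 weeks. In 4 mice (Tak1/Casp8) the kinase TAK1 and the apoptosis protease caspase 8 were both deleted in liver parenchymal cells (LPC). In the other 4 (Tak1/Rip3) TAK1 was deleted in the same cells and Rip3, the kinase of necroptosis, was knocked out, written Rip3-/-. The pair was set up to separate genes that answer to apoptosis from those that answer to necroptosis. All 8 mice thus lacked TAK1 in LPC, no TAK1-intact mice enter the comparison, and a lower value in one genotype may equally be a higher one in the other. The sources used here do not name the driver of the LPC deletion, which leaves both genes in other liver cells, whereas Rip3 was absent from the whole animal.

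Wnt proteins bind Frizzled receptors and LRP co-receptors, which halts a destruction complex built on Axin and APC and lets beta-catenin enter the nucleus and act with TCF/LEF factors. R-spondins, bound by LGR receptors, strengthen the signal by clearing the membrane ligases RNF43 and ZNRF3, which otherwise remove Frizzled from the cell surface. In the mouse liver, endothelial cells of the central vein release Wnt2, Wnt9b and Rspo3, and the hepatocytes nearest to them switch on a pericentral programme of enzymes and transporters.

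Values are RMA log2 intensities as deposited; RMA subtracts background, gives the arrays a common distribution and combines probes into probe sets. A gene's value on an array was the median over its probe sets, and differences are log2, Tak1/Casp8 minus Tak1/Rip3. The array medians lay between 8.06 and 8.12 in the Tak1/Casp8 livers and between 8.10 and 8.16 in the Tak1/Rip3 livers. The lower quartiles of their probe sets lay between 6.47 and 6.49 and between 6.51 and 6.52, so those of the Tak1/Casp8 arrays were slightly lower. The targeted Casp8 was lower in the Tak1/Casp8 livers and Ripk3 was lower in the Tak1/Rip3 livers, as labelled (differences -1.31 and 0.98, limma adjusted p = 0.000123 and 0.00782). Map3k7, targeted in both, differed by -0.08. Of 10 hepatocyte markers 9 were measured, none passed the test, and their mean level lay between 13.42 and 13.45 in the Tak1/Casp8 livers and between 13.40 and 13.46 in the Tak1/Rip3 livers. The labels name no litter, scan or batch, so any handling that went with genotype cannot be told apart from it.

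Of the 10 genes, Lgr5, Lect2, Axin2 and Tcf7 were lower in the Tak1/Casp8 livers at an adjusted p under 0.05 in limma's moderated test, and none was higher. Over all genes 6.69% passed, 4.05% with lower values and 2.64% with higher ones. The median difference of the 10 was -0.42, against 0.01 over all 19560 genes. All 10 differences were negative, as were those of 47.4% of all genes. At an unadjusted p under 0.05 there were 8 of the 10, against 21.1% of all genes. In 5 of them (Rspo3 besides the 4 that passed) every Tak1/Casp8 liver lay below every Tak1/Rip3 liver, as in 8.30% of all genes. In liver tissue, fewer cells of a type and less RNA per cell cannot be told apart.

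**Figure D1:**
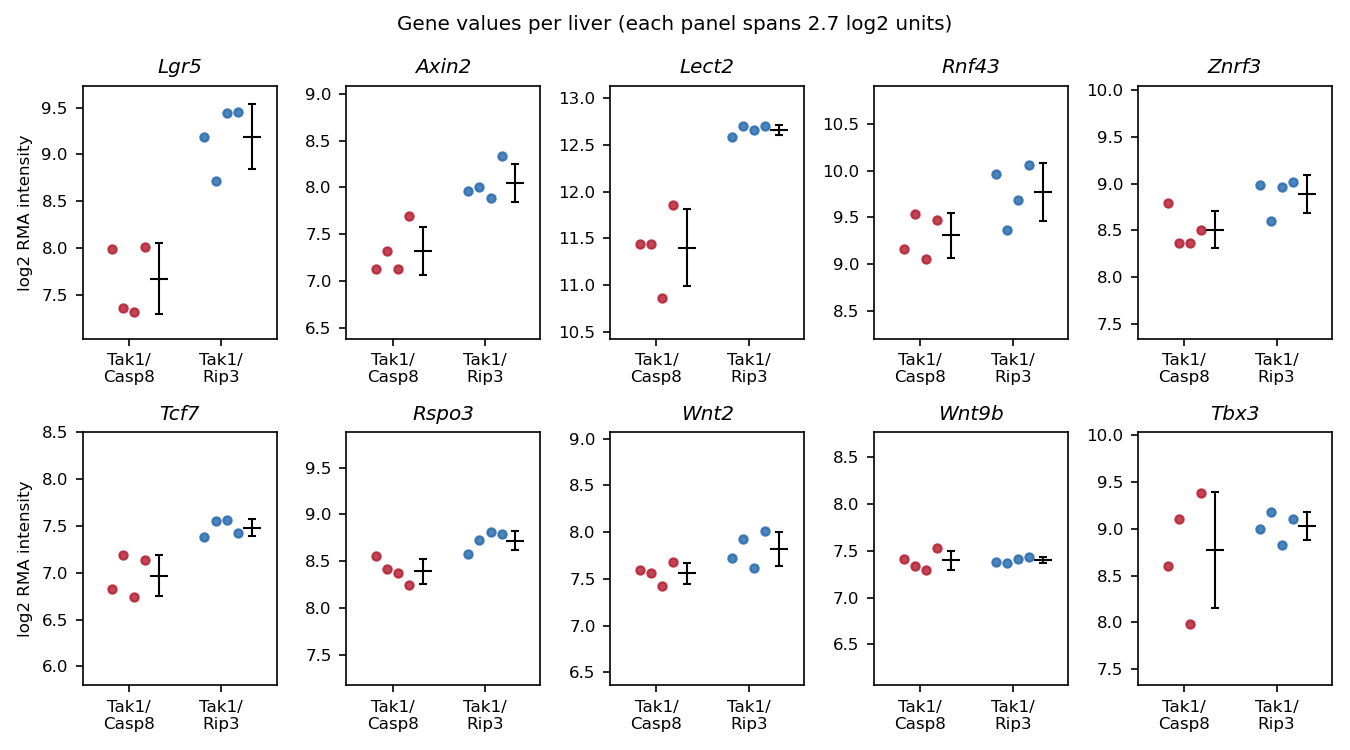
Log2 RMA intensity of each of the 10 genes in 4 Tak1/Casp8 livers (left, red) and 4 Tak1/Rip3 livers (right, blue), with points for livers and black bars for mean ± SD; the panels have equal spans, so vertical distances can be compared but levels of different genes cannot. The groups stand apart for Lgr5, Axin2, Lect2, Tcf7 and, by 0.03, Rspo3, and overlap for the other 5 genes.

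Lgr5, the R-spondin receptor that is also a Wnt target and in mouse liver marks the hepatocytes next to the central vein, differed most. Its log2 value was 7.99, 7.36, 7.31 and 8.01 in the Tak1/Casp8 livers, against 9.18, 8.71, 9.44 and 9.45 in the Tak1/Rip3 livers. The highest Tak1/Casp8 liver lay 0.69 below the lowest Tak1/Rip3 liver, so the groups did not overlap. The difference was -1.52 ± 0.21 (SE, n = 4 per group), a 2.88-fold lower intensity (limma adjusted p = 0.00307), and it stood at place 158 of all genes by p.

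The 20 probe sets of Lgr5, numbered 10372504 to 10372523, all had a lower mean in the Tak1/Casp8 livers. In that order the first 10 differed by -1.36, -0.44, -0.91, -1.38, -1.58, -1.64, -1.96, -1.80, -1.99 and -1.50. The last 10 differed by -1.39, -1.77, -1.45, -1.04, -1.96, -1.55, -1.40, -1.32, -0.68 and -0.19. In a limma fit over all probe sets, in which 1.64% passed, 1.11% with lower values, 14 of the 20 passed, and 17 had groups that did not overlap (6.57% of all probe sets did so in that direction). The 3 smallest differences belonged to the second probe set and the last pair. The last probe set read 6.76 ± 0.27 in Tak1/Casp8 and 6.95 ± 0.58 in Tak1/Rip3 livers (SD), near the lower quartile of the arrays, while the one before it was the brightest at 9.39 ± 0.22 and 10.07 ± 0.13 and gave only -0.68. The fold for Lgr5 thus varied with the probe set, and the sources used here do not place the probe sets along the transcript.

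Axin2 encodes the scaffold of the destruction complex that Wnt signalling itself induces, and serves as a general readout of the pathway. Its log2 value was 7.13, 7.32, 7.13 and 7.69 in the Tak1/Casp8 livers, against 7.96, 8.01, 7.89 and 8.34 in the Tak1/Rip3 livers. The groups did not overlap, with a gap of 0.20 between them. The difference was -0.73 ± 0.15 (SE, 4 livers each), or 1.66-fold lower by limma (adjusted p = 0.0161).

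The 14 probe sets of Axin2 were less alike than those of Lgr5. In order of identifier, from 10382229 to 10382242, they differed by -0.21, -0.86, -1.15, -1.59, -1.74, -0.42, -1.21, 0.15, -1.41, 0.17, -0.00, -0.37, -1.01 and -0.56. Of these 3 passed the probe set test, 10382232, 10382233 and 10382237, and 6 had groups that did not overlap. Over all probe sets 1.11% passed as lower and 6.57% had groups apart in that direction. Large and near-zero differences stood side by side: 10382236, 10382238 and 10382239 differed by 0.17 at most. The brightest was 10382238, with 9.26 ± 0.05 in Tak1/Casp8 and 9.09 ± 0.16 in Tak1/Rip3 livers (SD). Taken alone it would give 0.17 for the gene in place of -0.73 (limma adjusted p = 0.412), so the Axin2 call rests on the other probe sets.

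**Figure D2:**
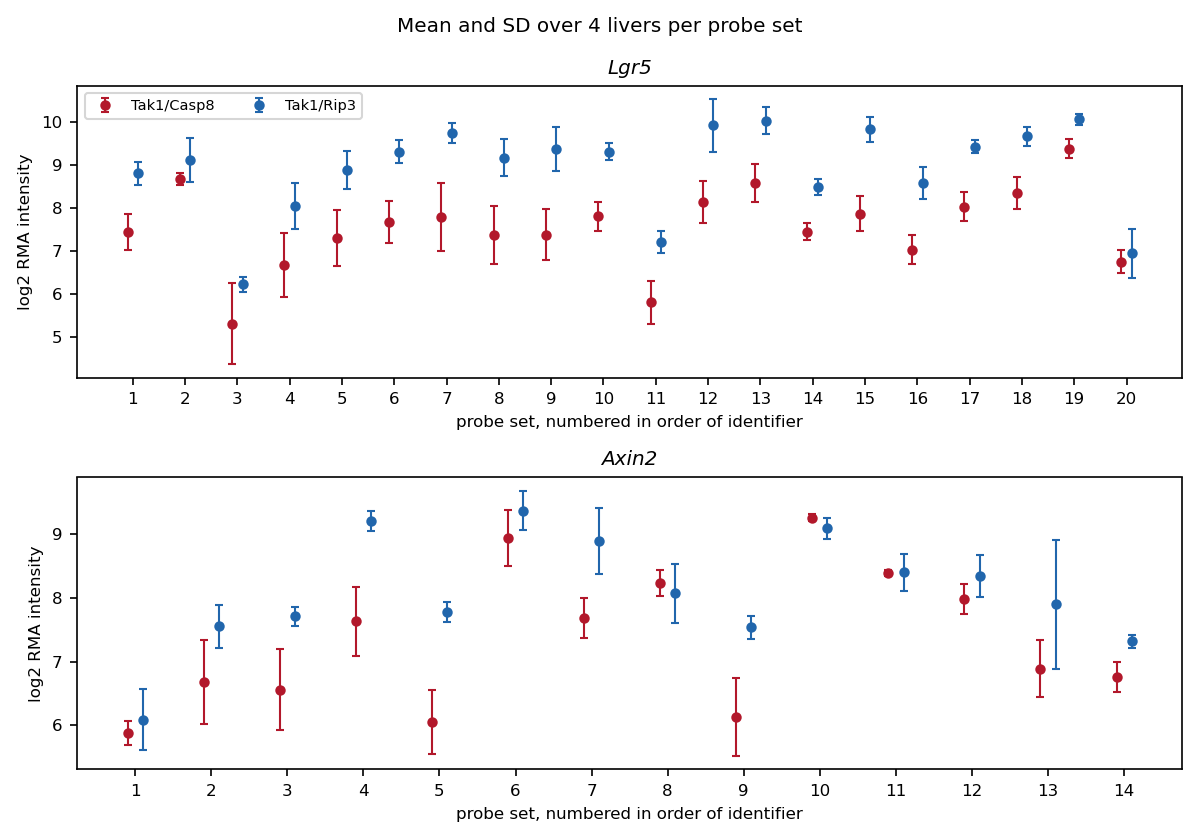
Mean ± SD of the log2 RMA intensity over 4 Tak1/Casp8 livers (red, left of each pair) and 4 Tak1/Rip3 livers (blue) for each of the 20 probe sets of Lgr5 and the 14 of Axin2, numbered in order of identifier. For Lgr5 the red mean lies below the blue one at every probe set, while for Axin2 the means lie apart at some probe sets and near each other at others.

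Lect2 encodes a chemotactic protein secreted by hepatocytes and is a beta-catenin target in mouse liver. Its log2 value was 11.44, 11.44, 10.86 and 11.86 in the Tak1/Casp8 livers, against 12.59, 12.70, 12.66 and 12.70 in the Tak1/Rip3 livers. The Tak1/Rip3 livers were nearly level (SD 0.05) and the Tak1/Casp8 livers were spread (SD 0.41), 0.72 apart at the nearest. The difference was -1.26 ± 0.18 (SE with 4 livers each), 2.40-fold lower (limma adjusted p = 0.00316). All 6 of its probe sets passed, with differences from -1.95 to -1.15, so every probe set of this gene gave the same call. Among all probe sets 1.11% passed as lower.

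TCF/LEF factors bind DNA at a short core, searched here as the letters CTTTGAT and CTTTGAA on both strands in the 250 bases before each RefSeq transcript start (GRCm38.p6). Of 32851 such windows 3.21% held the first, 4.46% the second and 7.48% either. Windows were in the table for 6 of the 10 genes, Axin2, Lect2, Rnf43, Tcf7, Wnt2 and Wnt9b. The only match among their 8 windows was in Lect2, where the window, read in the direction of the gene, holds ATCAAAG from position -32, which is CTTTGAT on the opposite strand. The windows of Lect2 (chr13:56548539-56548788, minus strand) and of Axin2 (chr11:108920099-108920348, plus strand) are shown, both in the direction of the gene, as an example with the letters and, from another called gene, one without. Capitals mark the match.
Lect2: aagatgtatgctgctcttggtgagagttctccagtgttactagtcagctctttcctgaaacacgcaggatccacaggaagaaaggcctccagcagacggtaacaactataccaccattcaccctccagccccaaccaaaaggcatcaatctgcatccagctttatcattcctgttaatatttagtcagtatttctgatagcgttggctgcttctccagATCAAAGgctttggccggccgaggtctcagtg
Axin2: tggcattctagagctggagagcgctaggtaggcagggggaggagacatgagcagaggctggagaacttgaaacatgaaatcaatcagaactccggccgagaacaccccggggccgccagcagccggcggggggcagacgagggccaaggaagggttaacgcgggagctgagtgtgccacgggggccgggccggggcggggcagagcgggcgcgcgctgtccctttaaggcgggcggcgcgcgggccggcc
A match is a run of letters and not a shown binding site, and its absence here says nothing of sites elsewhere at the gene.

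Tbx3, a T-box repressor and pericentral Wnt target, did not pass the test. Its log2 value was 8.60, 9.11, 7.98 and 9.38 in the Tak1/Casp8 livers, against 9.00, 9.18, 8.83 and 9.11 in the Tak1/Rip3 livers. The Tak1/Casp8 livers lay on both sides of the others, with an SD of 0.62 against 0.15. The difference was -0.26 (95% interval -0.83 to 0.30, limma adjusted p = 0.613), and without Tak1/Casp8 replicate 3 it was 0.00. All 13 probe sets had a lower mean in the Tak1/Casp8 livers, by 0.55 at most, and none passed.

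Rnf43 and Znrf3 encode the paired membrane ligases that take Frizzled receptors off the cell surface, and both are themselves Wnt targets. The log2 value of Rnf43 was 9.16, 9.54, 9.05 and 9.47 in the Tak1/Casp8 livers, against 9.96, 9.37, 9.69 and 10.06 in the Tak1/Rip3 livers. That of Znrf3 was 8.79, 8.37, 8.37 and 8.50 in the Tak1/Casp8 livers, against 8.99, 8.60, 8.97 and 9.02 in the Tak1/Rip3 livers. In both genes Tak1/Rip3 replicate 2 lay inside the Tak1/Casp8 range and the groups overlapped.

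Neither ligase passed the test. Rnf43 differed by -0.46 (95% interval -0.83 to -0.09, limma adjusted p = 0.141) and Znrf3 by -0.39 (-0.68 to -0.09, limma adjusted p = 0.120). Of the 12 probe sets of Rnf43 11 had a lower mean in the Tak1/Casp8 livers, and of the 8 of Znrf3 7 did. Without Tak1/Rip3 replicate 2 the differences were -0.60 and -0.48 and both passed (limma adjusted p = 0.0474 and 0.0453). With all 8 arrays kept but weighted they passed too (limma adjusted p = 0.0443 and 0.0420), as did Rnf43 over its brighter probe sets (-0.62, limma adjusted p = 0.0240). Most alternatives gave no call. Of 18, Rnf43 passed in 4 and not in 14, and Znrf3 passed in 2 and not in 16.

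Tcf7 encodes TCF1, a DNA-binding partner of beta-catenin that is itself a Wnt target and is also abundant in T cells. Its log2 value was 6.83, 7.19, 6.74 and 7.14 in the Tak1/Casp8 livers, against 7.38, 7.55, 7.56 and 7.43 in the Tak1/Rip3 livers. The groups did not overlap, with a gap of 0.19. The difference was -0.50 ± 0.12 (SE with 4 livers each), 1.42-fold lower (limma adjusted p = 0.0337). All 10 probe sets had a lower mean in the Tak1/Casp8 livers, from -1.51 to -0.07. Of them 3 passed, led by 10385780 (7.93 ± 0.40 against 9.44 ± 0.13, SD), where 1.11% of all probe sets passed as lower.

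The Tcf7 call was the least firm of the 4. It was lost without Tak1/Casp8 replicate 1 or 3 or any 1 of the Tak1/Rip3 livers (limma adjusted p = 0.0643 to 0.0901). Quantile normalisation or a shift of the arrays to one median also ended it (limma adjusted p = 0.0542 and 0.0605). Of 13 markers of T and NK cells 12 were measured and none passed (median difference -0.14). By sign 9 of the 12 differences were negative and 3 positive, with Il7r at -1.05 (limma adjusted p = 0.0521). The mean level of the 12 was 6.16 to 6.30 in the Tak1/Casp8 livers and 6.37 to 6.52 in the Tak1/Rip3 livers. Of these genes 5, among them Cd3d and Cd247, were under the lower quartile on every array. The part of these cells in the Tcf7 value was not tested.

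**Figure D3:**
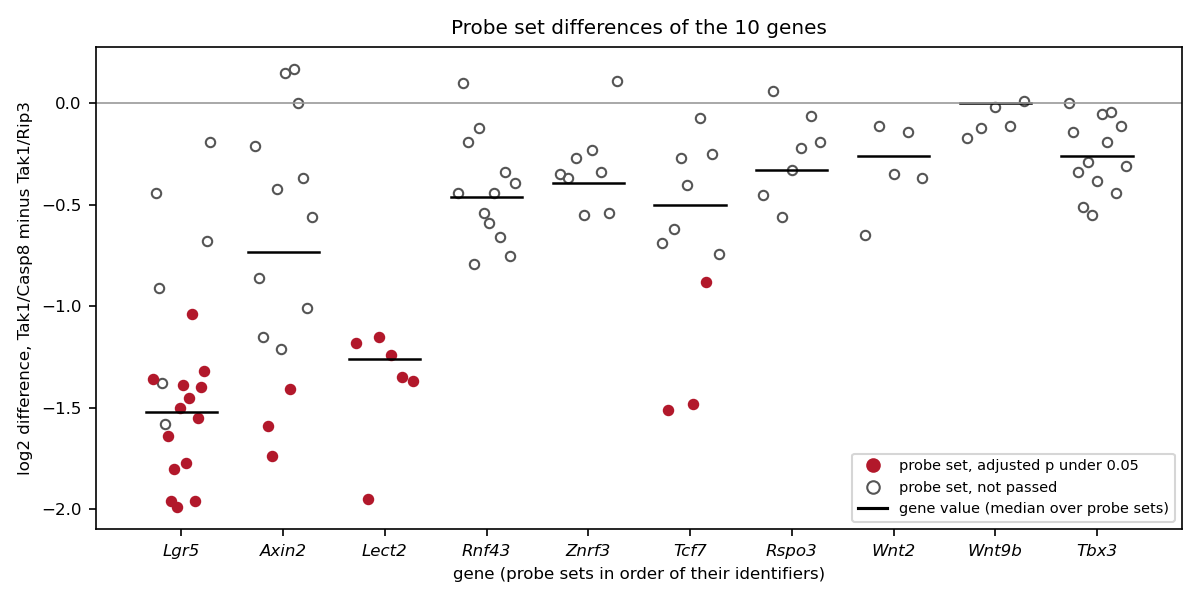
Log2 difference (Tak1/Casp8 minus Tak1/Rip3) of each of the 100 probe sets of the 10 genes; filled red points passed at an adjusted p under 0.05, open points did not, and black lines are the gene values. The 26 that passed belong to Lgr5 (14), Lect2 (6), Axin2 (3) and Tcf7 (3) and all lie below 0.

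Across the 100 probe sets 94 differences were negative, against 49.7% of all probe sets, and their median was -0.45. The 26 that passed were all lower in the Tak1/Casp8 livers and lay in the 4 genes called. Over all probe sets 1.64% passed, 1.11% with lower values. Probe sets of a gene share its RNA and are not replicates. The count of 26 fell with fewer arrays, to 14, 7 and 13 without Tak1/Casp8 replicate 1, 2 or 3 and to 5, 7 and 5 without Tak1/Rip3 replicate 1, 3 or 4.

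None of the 3 ligands passed the test. Rspo3 encodes the R-spondin of central vein endothelium. Its log2 value was 8.55, 8.42, 8.37 and 8.24 in the Tak1/Casp8 livers, against 8.58, 8.73, 8.81 and 8.79 in the Tak1/Rip3 livers. The groups were apart by 0.03 only, and the difference of -0.33 did not pass (95% interval -0.55 to -0.11, limma adjusted p = 0.0810).

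Wnt2, made by sinusoidal and central vein endothelium in mouse liver, had log2 values of 7.59, 7.56, 7.42 and 7.68 in the Tak1/Casp8 livers, against 7.72, 7.93, 7.62 and 8.01 in the Tak1/Rip3 livers. The groups overlapped by 0.06 and the difference of -0.26 did not pass (95% interval -0.50 to -0.01, limma adjusted p = 0.221). Wnt9b, the other ligand of that endothelium, had 7.41, 7.34, 7.30 and 7.53 in the Tak1/Casp8 livers, against 7.38, 7.37, 7.41 and 7.43 in the Tak1/Rip3 livers. Its group means were both 7.40, with a 95% interval of the difference from -0.20 to 0.19 (limma adjusted p = 0.992). None of the 17 probe sets of the ligands (7, 5 and 5) passed.

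Markers of the cells that make these ligands were measured beside them. Of 10 genes of central vein endothelium, the 3 ligands included, only Selp passed, as higher in the Tak1/Casp8 livers. By sign 8 of the 10 differences were negative and 2 positive (median -0.23). The mean level of the 10 was 8.25 to 8.46 in the Tak1/Casp8 livers and 8.42 to 8.54 in the Tak1/Rip3 livers. Of 14 markers of sinusoidal and general endothelium none passed (median 0.05, mean level 9.91 to 10.01 against 9.88 to 9.98). The part of these cells in the ligand values was not tested.

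The order of the livers within each group was counted over the 10 genes. Within the Tak1/Casp8 group replicate 3 had the lowest value for 9 of the 10, all but Rspo3, where over all genes it was lowest in 26.1% and over the genes called lower in 38.3%. Tak1/Casp8 replicate 4 was highest for 6, including Lgr5, Axin2 and Lect2 (42.0% over all genes). Among the Tak1/Rip3 livers replicate 4 was highest for 7 (18.5% over all genes), while the lowest value was spread over replicates 1, 2 and 3, with 3, 4 and 3 genes. Marker genes of dividing cells ran alike within the Tak1/Casp8 group: their mean level was 8.26, 8.26, 7.25 and 8.51 in the Tak1/Casp8 livers, against 10.12, 9.26, 9.71 and 10.07 in the Tak1/Rip3 livers. All 9 measured of 10 passed as lower, against 4.05% of all genes, with a median of -1.57. Their part in the values of the Wnt genes was not tested.

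The rest of the Wnt pathway was read from lists of its parts, which also hold the 10 genes. Outside the 10 few passed. Of 17 other Wnt ligands Wnt5a, a ligand of beta-catenin-independent signalling, was lower (-0.77 ± 0.13 SE with 4 livers each, limma adjusted p = 0.00689), with 7.02, 7.24, 7.41 and 6.92 in the Tak1/Casp8 livers against 8.08, 7.75, 8.01 and 7.84 in the Tak1/Rip3 livers. Wnt9a was higher (0.42 ± 0.09, limma adjusted p = 0.0220). The groups did not overlap in either gene, but with the brightest probe set the differences were 0.00 and -0.08 and neither passed. The Wnt9a call was also lost without Tak1/Casp8 replicate 1 or Tak1/Rip3 replicate 1, 3 or 4. Wnt10a (-0.54) and Wnt4 (0.29) did not pass. The median over all 19 ligands was 0.10.

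Receptors other than Lgr5 showed no common direction. Lgr4, the related R-spondin receptor, differed by 0.28 (limma adjusted p = 0.184), and Rspo2 by 0.22. None of the 5 genes of the R-spondin and LGR list outside the 10 passed. Of 15 Frizzled, LRP and related receptors Fzd1 was lower (-0.57 ± 0.11 SE with 4 livers each, limma adjusted p = 0.0126) and Ror2, a receptor for Wnt5a, was higher (0.42 ± 0.11, limma adjusted p = 0.0488). With the brightest probe set these were -0.14 and 0.16 and neither passed. Leaving out an array ended the Ror2 call in each case except Tak1/Rip3 replicate 2. Fzd6 (-0.71), Fzd7 (-0.30), Fzd4 (0.31), Lrp5 (-0.19) and Lrp6 (0.19) did not pass. The carrier Wls (-0.25) and the acyltransferase Porcn (0.07), which ready Wnt proteins for release, did not pass either.

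The core that turns the signal over in the cell gave no call at the RNA level besides Axin2 and Tcf7. A gene that did not pass is not thereby shown to be unchanged. None of 14 genes of the destruction complex and Dishevelled other than Axin2 passed. Among them Ctnnb1, which encodes beta-catenin, differed by -0.04 (95% interval -0.40 to 0.31), the scaffold Apc by 0.14 and the kinases Gsk3b, Gsk3a and Csnk1a1 by 0.07, 0.16 and -0.22. Dvl2, a Dishevelled, differed by 0.24. None of 11 TCF/LEF factors and co-factors other than Tcf7 passed, with Tle4 at 0.41, Pygo1 at -0.46 and Tle2 at 0.21. The array measures RNA, and the level or place of beta-catenin protein is not part of these data.

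Feedback inhibitors and other targets gave a few more calls, all lower in the Tak1/Casp8 livers. Notum, a secreted enzyme that inactivates Wnt proteins and is induced by them, had 7.43, 7.48, 7.38 and 8.17 in the Tak1/Casp8 livers, against 8.82, 8.78, 8.31 and 8.42 in the Tak1/Rip3 livers. The groups did not overlap, and it differed by -0.97 ± 0.19 (SE with 4 livers each, limma adjusted p = 0.0140). It was the only one of 13 secreted inhibitors that passed, with Dkk3 at -0.50, Dkk2 at 0.27 and Sost at 0.23. Of 20 general Wnt targets 5 passed as lower and none as higher, where 4.05% and 2.64% of all genes did so. The 5 were Lgr5, Axin2, Tcf7, Notum and cyclin D1 (Ccnd1, -1.28 ± 0.23), a gene of the cell cycle as well. By sign alone 13 of the 20 differences were negative and 7 positive. Myc, another shared target, differed by -0.49 and did not pass. The median of the list was -0.20, and that of its 15 genes outside the 10 was -0.05.

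**Figure D4:**
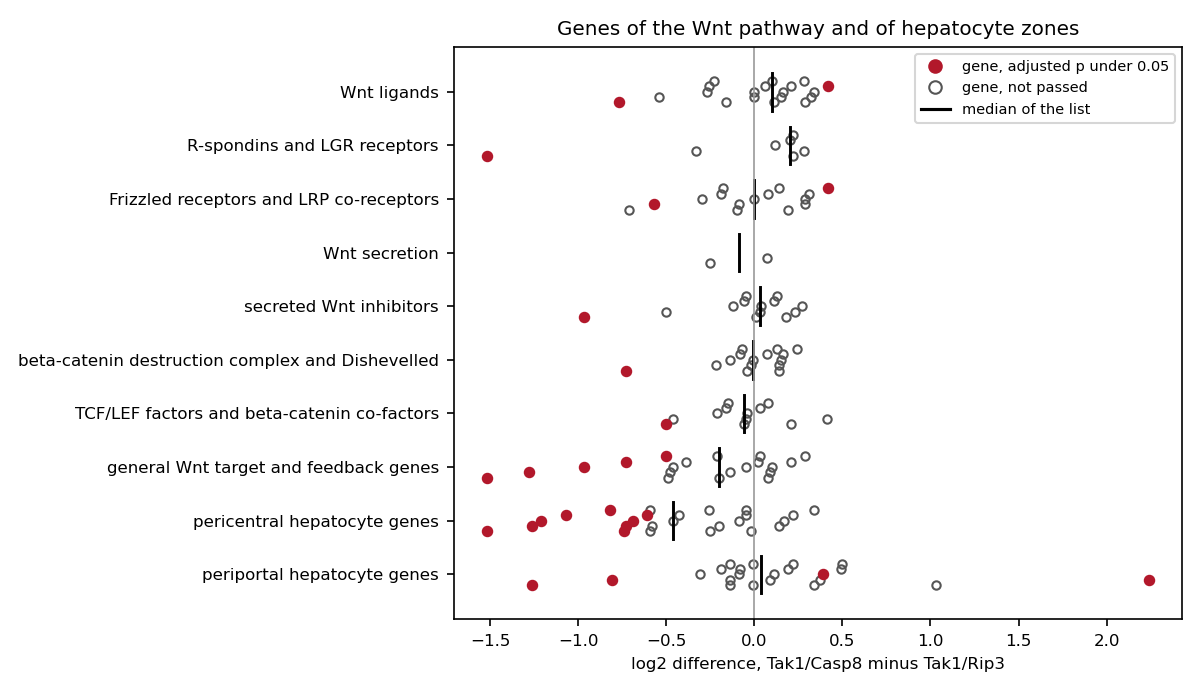
Log2 difference (Tak1/Casp8 minus Tak1/Rip3) of every measured gene in 10 lists of the Wnt pathway and of hepatocyte zones; filled red points passed at an adjusted p under 0.05, open points did not, and black lines are list medians. The medians of the ligand, receptor and destruction complex lists lie between -0.01 and 0.20, while the pericentral list has a median of -0.46 with 9 genes passed, all lower.

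The pericentral programme was lower in part. Of 25 measured pericentral genes 9 passed as lower and none as higher, with a median of -0.46. By sign alone 21 of the 25 differences were negative and 4 positive. Among all genes 4.05% passed as lower. Of the 21 pericentral genes outside the 10 genes 6 passed as lower, with a median of -0.43. They included Lhpp, a phosphatase (-1.21 ± 0.21 SE, n = 4 per group), the neutral amino acid transporter Slc1a4 (-0.82 ± 0.16) and ornithine aminotransferase, Oat (-0.69 ± 0.15), with limma adjusted p = 0.00923, 0.0145 and 0.0229. Oat had 12.35, 12.36, 12.01 and 12.79 in the Tak1/Casp8 livers, against 13.09, 12.90, 13.08 and 13.18 in the Tak1/Rip3 livers, and the groups did not overlap. The Oat call was lost without Tak1/Casp8 replicate 1 or 2 or Tak1/Rip3 replicate 1, 3 or 4.

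The best known pericentral enzymes did not pass. Glutamine synthetase, Glul, differed by 0.14 (95% interval -0.17 to 0.44), Cyp2e1 by -0.02 (-0.28 to 0.23) and Cyp1a2 by -0.05 (-0.35 to 0.25). The mean level over the pericentral list was 10.66, 10.62, 10.23 and 11.01 in the Tak1/Casp8 livers, against 11.03, 11.07, 11.15 and 11.10 in the Tak1/Rip3 livers. It was lowest in Tak1/Casp8 replicate 3 and nearest to the other group in replicate 4, the order seen in Lect2. Without Tak1/Rip3 replicate 1 the count of 9 was 5.

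Genes of the opposite, periportal zone had no common direction. Among 22 measured the median was 0.04, and 2 genes passed in each direction. Over all genes 4.05% passed as lower and 2.64% as higher. Pigr, the receptor that carries immunoglobulin into bile, was higher (2.24 ± 0.16 SE with 4 livers each, limma adjusted p = 8.29e-05), as was Hsd17b13, a lipid droplet enzyme (0.39 ± 0.10). Etnppl, an ethanolamine-phosphate lyase, and Aldh1b1, an aldehyde dehydrogenase, were lower (-1.26 ± 0.12 and -0.81 ± 0.13). The urea cycle enzymes Arg1 and Cps1 differed by 0.22 and -0.08 and did not pass.

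Genes whose profile over the 8 arrays was nearest to that of Lgr5 or Axin2 were listed by the root mean square (RMS) difference of the centred log2 values. Nearest to Lgr5 were Kif20b, a kinesin of cytokinesis (0.20), the chloride channel Ano1 (0.21), the surface protein Ly6d (0.22), Trim59 (0.23) and Arhgap11a (0.23). Lect2 was the nearest of the other 9 genes, at place 45 with 0.31, and Axin2 stood at place 307 with 0.50. Nearest to Axin2 were the water channel Aqp4 (0.09) and Poc1a, Cntnap1, Rexo5 and Qrsl1 (0.11 each). Tcf7 was the nearest of the 10 genes to Axin2, at place 158 with 0.22. Counted from Axin2, Lgr5 stood at place 13813 with the same 0.50, behind Wnt9b at place 5412 with 0.40. The measure takes in the size of a gene's differences, so a place is not a correlation. The 8 arrays hold 2 groups and every gene shares them, so the measure describes these livers alone.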

How the data were processed

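The authors deposited log2 intensities made with RMA (version unnamed), as the submitters' processing notes record. RMA removes shifts shared by most genes, and no detection call was used here. Array number, 4 per group, limits precision. Of 223771 probe sets, 206316 carried exactly 1 symbol. Old symbols (2571) were updated through a RefSeq table of GRCm38.p6, which 19456 of 19560 gene symbols matched. No source used here gives the probe annotation's build, so coordinates of the measured genes and probe sets are not printed. The positions shown for the Lect2 and Axin2 windows are those of the RefSeq transcript starts on GRCm38.p6.

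Gene values (median over probe sets) were fitted in limma 3.58.1 under R 4.3.3 (lmFit, eBayes, 1 group term, two-sided). Adjusted p is Benjamini-Hochberg over all genes, or over all probe sets in the probe set fit, called under 0.05. The fit was tested on simulated data. Intervals are 95%, from the moderated fit. Each p-value sets the group difference against the spread between mice, with variances moderated over all genes or probe sets in the limma fits. Figures used matplotlib 3.10.9.

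The 10 genes, the 10 pathway lists and the 8 marker lists were chosen with earlier results of these data known. Named genes were the 10, the targeted genes, up to 4 genes of smallest adjusted p in each pathway list, 16 well-known genes and the 5 nearest profiles of Lgr5 and Axin2. Marker genes Selp, Cd3d, Cd247 and Il7r were named after their values were seen. Alternatives changed normalisation, probe set summary, filter, variance model, array weights, threshold and arrays left out.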

Additional observations from a re-analysis of the deposited data

Results flagged for a closer look

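Among 104 groups of 4 livers (52 genes in both genotypes), 6 held a liver whose gap to its neighbour passed Dixon's 95% critical value for 4 samples, and chance alone gives about 1 group in 20. Tak1/Rip3 replicate 2 was the liver concerned in 3 of them. Its Znrf3 value was 8.60, below the others at 8.97 to 9.02, its Ctnnb1 value was 11.30, below 11.94 to 11.95, and its Dkk3 value was 8.54, above 8.23 to 8.26. This array also had the lowest mean correlation with the rest of its group. Notum was 8.17 in Tak1/Casp8 replicate 4, above the others at 7.38 to 7.48, and Pygo1 was 6.00 in Tak1/Casp8 replicate 2, below 6.88 to 7.06. Fzd7 was 9.12 in Tak1/Rip3 replicate 1, above 8.89 to 8.90.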

How the results depend on the processing

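Of the 10 genes 4 passed, and between 3 and 5 did when each array was left out in turn. At an adjusted p under 0.01, 2 passed. A Welch test, with unmoderated variances separate for each group, called 0 of the 10 genes, 0 of their 100 probe sets, 0 pericentral genes and 0 general Wnt targets. At an unadjusted p under 0.05 it gave 6 of the 10 genes and 45 of their 100 probe sets. Counting lower values only, it gave 9 of 25 pericentral genes and 6 of 20 general Wnt targets. Over all genes it gave 3508 of 19560 in either direction. No count over all probe sets was made for this test, so the 45 have no share beside them. After adjustment it called 115 of all genes. At the 0.05 threshold Lgr5 and Lect2 passed under each of the other 17 alternatives, and Axin2 under all but the brightest probe set. Lgr5 differed by -0.68 with its brightest probe set. Array weights or the omission of the least correlated array of each group, chosen after seeing the data, left 6 and 4 of the 10 called.

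The 1308 genes called became 759 when genes were read from their brightest probe set, 406 at 0.01 and 2130 at 0.10, and 706 to 1347 with an array left out. The 26 probe sets became 2 at 0.01 and 5 to 25 with an array left out. The 9 pericentral genes became 3 at 0.01 and 5 to 11 with an array left out. The 5 general Wnt targets became 3 with the brightest probe set, 8 with array weights, 2 at 0.01 and 4 to 7 with an array left out. In leave-one-out fits fewer arrays also mean less power.

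Some differences changed sign. With the brightest probe set the values were 0.17 for Axin2, 0.01 for Wnt9b, 0.00 for Wnt5a, -0.08 for Wnt9a, -0.01 for Lgr4, 0.15 for Fzd6, 0.11 for Pygo1 and 0.00 for Cyp1a2. Quantile normalisation and a shift to one median each gave 0.04 for Wnt9b, and the shift gave 0.02 for Cyp2e1. With 1 array left out, differences ran across 0, from -0.05 to 0.03 for Wnt9b, -0.47 to 0.00 for Tbx3, -0.01 to 0.15 for Porcn, -0.21 to 0.04 for Ctnnb1, -0.04 to 0.15 for Gsk3b, -0.08 to 0.07 for Cyp2e1 and -0.12 to 0.04 for Cyp1a2. None of these reversed values passed, and the cause was not tested. No paired analysis was possible because the labels give no litter or pairing, and the replicate numbers do not link mice of the 2 groups.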

Other observations

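Markers of other liver cells were read beside the Wnt genes. Of 10 stellate cell genes Lrat, Reln and Hand2 passed as lower and Colec11 as higher in the Tak1/Casp8 livers, with a median of -0.31. Their mean level was 9.26 to 9.54 in the Tak1/Casp8 livers and 9.57 to 9.68 in the Tak1/Rip3 livers. Over all genes 4.05% passed as lower and 2.64% as higher. Of 8 measured bile duct genes only Spp1 passed, as higher (0.97), while 5 of the 8 differences were negative and 3 positive (median -0.07). Epcam differed by -1.05 and did not pass (limma adjusted p = 0.0651). Of 10 genes of Kupffer cells and monocytes none passed (median 0.16). These stellate and bile duct genes were named after their values were seen.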
